A study of Homo sapiens with 4 samples.

Results

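The genes described here encode the MYC, MAX and MXD network, 9 of the 59050 genes in the counts. They were taken by symbol and were compared between RCC4 cells with PML knockdown (shPML) and with a scrambled hairpin (shCtrl) within each replicate. RCC4 is an established human clear cell renal cell carcinoma (ccRCC) line that lacks functional VHL, so its hypoxia-inducible factors are stable. The cells carried a doxycycline-inducible shRNA in the Tet-pLKO-puro vector, shPML#1 or the scrambled control, and were kept as puromycin-selected bulk populations. Every sample, the controls included, received doxycycline at 100 ng/ml for 96 h. There were 2 libraries of shCtrl and 2 of shPML, from 2 experiments with separate lentiviral infections, and the replicate number was read as the experiment. No second PML hairpin is among the libraries. An update to the deposited record reports that the labels of 2 samples had been exchanged and were put right, and the corrected labels were used.

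MAX is the shared dimerization partner of this network. MYC and MYCN bind E-box DNA as heterodimers with MAX and activate transcription, which drives ribosome biogenesis, metabolism and entry into the cell cycle. The MXD proteins (MXD1, MXD3, MXD4 and MXI1) and MNT compete for MAX and for the same DNA, and recruit the SIN3 corepressor with its histone deacetylases. Some of them, though not MXD3 or MNT, are known for their rise when cells leave the cell cycle or differentiate. MGA is a large MAX partner that works within a variant Polycomb complex. In renal carcinoma cells MXI1 is also known as a gene induced by hypoxia-inducible factors.

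Between 27781193 and 69870617 reads were counted per library. PML itself was at 93.1 and 136 CPM (counts scaled to the library total with TMM factors) in shCtrl replicates 1 and 2 and at 54.9 and 87.6 CPM in shPML, which gives a log2 fold change of -0.70 ± 0.11 (SE, here and below from edgeR, with the replicate as a block unless said otherwise; adjusted p = 4.19e-07 by the quasi-likelihood test, and 0.32 without the block). All 8 renal carcinoma markers examined, among them PAX8 and CA9, were detected in every library. Of these, 1 fell and 0 rose, where 10.5% and 8.57% of all genes tested did. NNMT, a nicotinamide methyltransferase abundant in ccRCC, was at 427 and 391 CPM in shCtrl and at 269 and 176 CPM in shPML (log2 fold change -0.90, adjusted p = 1.01e-10 with the block and 0.16 without it in edgeR). Of 10 markers of other cell types, 4 passed the filter on low counts, of which 2 fell in shPML, the stromal and muscle markers ACTA2 (-0.54) and PDGFRB (-1.22). ACTA2 did not pass in DESeq2 with the block (adjusted p = 0.10), and neither passed without the block in edgeR or DESeq2. The T cell marker CD3E had no counts in any library. One library stood apart. PTPRC, the pan-leukocyte phosphatase, had 346 counts in shPML replicate 2 against 0 in both shCtrl libraries and 7 in shPML replicate 1. PECAM1, listed as an endothelial marker, had 113 counts there against 0, 0 and 3. The other endothelial markers of the list, CDH5 and VWF, were not raised in that library. CDH5 had 2 and 0 counts in shCtrl and 2 and 0 in shPML of replicates 1 and 2. VWF had 6 and 14 counts in shCtrl and 8 and 7 in shPML. A list of 18 macrophage genes, written after these counts were seen, summed to 400.2 CPM in shPML replicate 2 (here without TMM factors). The sums in the other libraries were 2.36 and 2.57 CPM for shCtrl and 1.40 CPM for shPML replicate 1. In shPML replicate 2, 17 of the 18 genes had over 10 counts (LYZ had 2349, CD14 1177 and CD163 638) and C1QB had none, whereas 2 or 3 of the 18 did in each of the other libraries. Results on the members and on called genes are therefore also given for replicate 1 on its own, and the part of these transcripts in the results was not tested. The liver gene ALB, at 172 counts in shCtrl and 271 in shPML of replicate 1, had none in replicate 2 of either condition. APOA1, another liver gene, had 99 counts in shCtrl and 121 in shPML of replicate 1, against 0 and 1 in replicate 2. Replicate 1 thus also holds transcripts that replicate 2 lacks.

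A gene is said to have risen or fallen where the adjusted p lay under 0.05 and the log2 fold change beyond 0.5 in a fit with the replicate as a block over the 16516 genes that passed the filter on low counts. Of the 9 members, 8 passed that filter. MXD1 rose, and no member fell. Across all genes tested, 8.57% rose and 10.5% fell, so 1 of 8 members is close to the background. At an adjusted p under 0.05 without a fold threshold, 4 members were higher (MXD1, MXD4, MXI1 and MAX) and 0 were lower, against 14.5% and 15.7% of all genes tested. The median log2 fold change of the 8 members was 0.29, against 0.0042 over all genes tested, while the median size of the change regardless of sign was 0.32 in both. In the fit without the block no member passed (0 called by edgeR, with MXD1 and MXI1 at an unadjusted p under 0.05), whereas DESeq2 without the block called MXD1 alone. The edgeR fit without the block called 0.0787% of all genes higher and 0.333% lower. In bulk RNA, fewer cells that express a gene and less RNA per cell cannot be told apart.

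**Figure D1:**
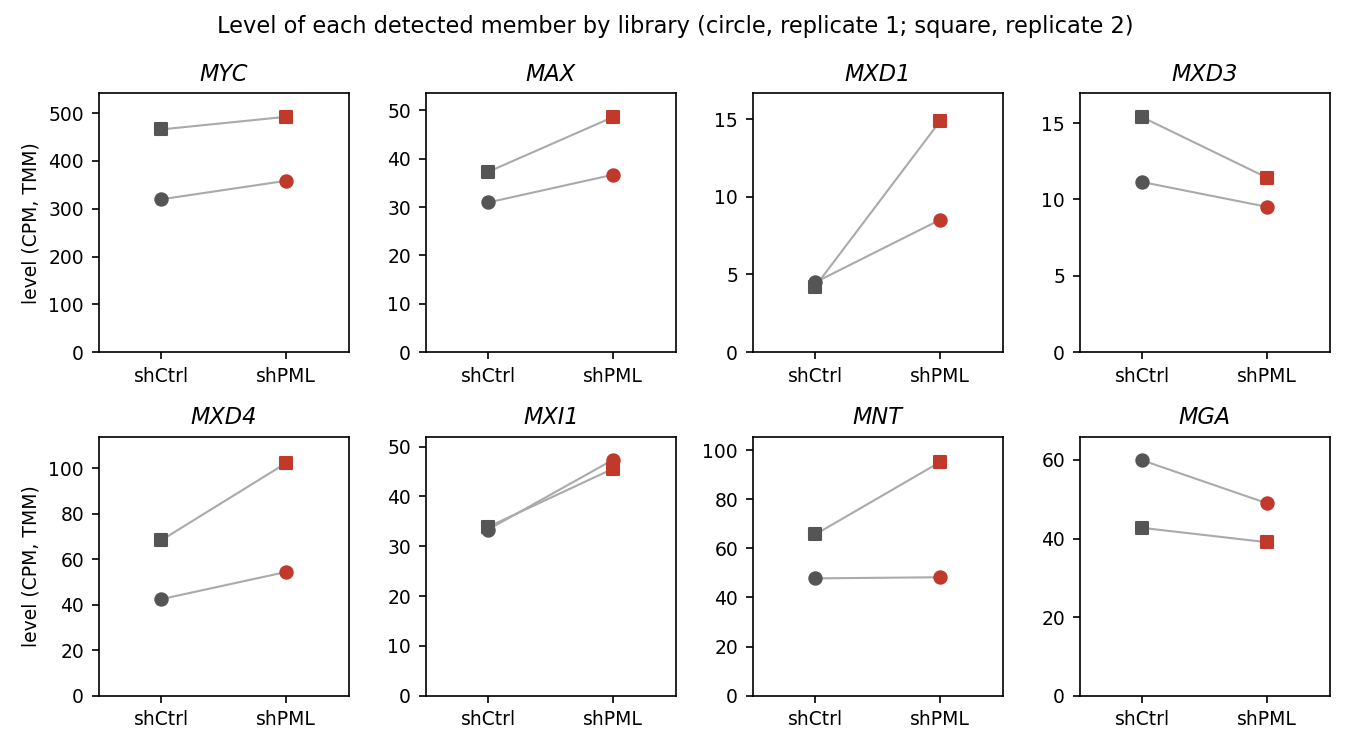
Level of the 8 detected members in each library in CPM, on linear axes that start at 0, with a line joining the libraries of one replicate. Both shPML libraries lie above both shCtrl libraries for MXD1 and MXI1, and the groups overlap for the other 6 genes.

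MYC was by far the most abundant member per length of transcript. On the RPKM scale (CPM per kilobase of exon) the shCtrl libraries had 69.7 and 102 for MYC in replicates 1 and 2, which placed it at percentile 96.3 of all genes tested by its mean over the 4 libraries. MXD4 followed with 11.0 and 17.7 RPKM and MNT with 9.62 and 13.2 RPKM. MAX had 7.54 and 9.09 RPKM, and MXI1 7.51 and 7.63 RPKM. MXD3 and MGA had 3.38 and 4.67 and 3.95 and 2.81 RPKM, and MXD1 was the lowest detected member with 0.799 and 0.752 RPKM. MXD4 and MNT overlapped between the shCtrl libraries, as did MAX and MXI1, and MXD3 and MGA, although MXD4 was above MNT in each of the 4 libraries. The exon length used here joins all annotated isoforms of a gene, which lowers the RPKM of genes with many alternative exons.

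Of the activators among the members, MYC did not differ detectably between the conditions, and MYCN could not be tested. MYC was at 320 CPM in shCtrl and 358 CPM in shPML of replicate 1, and at 466 and 492 CPM in replicate 2. The experiments differed more than the conditions, and the shPML library of replicate 1 lay below the shCtrl library of replicate 2. The log2 fold change of MYC was 0.12 ± 0.095 (SE; adjusted p = 0.36 from edgeR with the block), with a log2 ratio of 0.17 within replicate 1 and 0.080 within replicate 2. MYCN, the paralog known from neuroblastoma, had no reads in any library, which allows up to 0.0429 CPM in the deepest and 0.108 CPM in the shallowest library (3 counts each, for counting error only). No exon of another gene in the counts overlapped those of MYC or MYCN. MYCL, another MYC paralog and not one of the 9 members, was low and fell. It had 165 and 129 counts in shCtrl and 74 and 42 in shPML, which correspond to 3.05 and 3.58 CPM and to 1.03 and 1.53 CPM. Its log2 fold change was -1.40 ± 0.38 (SE; adjusted p = 0.00257 with the block in edgeR and 0.16 without it), with -1.56 and -1.22 within replicates 1 and 2. The part of the macrophage transcripts in this difference was not tested. The mean of MYCL, 0.67 RPKM in shCtrl and 0.259 RPKM in shPML, lay below the mean of each detected member in the same condition.

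MAX, on chromosome 14 of GRCh38 from 65006174 to 65102690, was at 30.9 and 37.3 CPM in shCtrl and at 36.7 and 48.6 CPM in shPML of replicates 1 and 2. It was higher in shPML in each replicate, although shPML replicate 1 lay just under shCtrl replicate 2. The log2 fold change was 0.31 ± 0.12 (SE; adjusted p = 0.0413 in edgeR with the block, and 0.11 in DESeq2 with the block), short of the fold threshold, and the log2 ratios within replicates 1 and 2 were 0.25 and 0.38.

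MXD1, the founding antagonist of the family and a gene that myeloid cells also express, lies on chromosome 2 from 69915041 to 69942945. It had 4.49 and 4.22 CPM in shCtrl and 8.52 and 14.9 CPM in shPML of replicates 1 and 2, from 243, 152, 611 and 409 reads. The shCtrl libraries lay close together, and both shPML libraries lay above them. Mean levels were 4.36 ± 0.189 CPM for shCtrl and 11.7 ± 4.49 CPM for shPML (SD, n = 2 each). MXD1 was thus 2.56-fold higher, 1.36 ± 0.21 on the log2 scale (SE; adjusted p = 4.36e-07 with the block, edgeR). Without the block it was 1.42 (adjusted p = 0.12 in edgeR and 0.00434 in DESeq2). The larger rise was in the library with macrophage transcripts. The log2 ratio was 1.81 in replicate 2 (SE 0.14 from counting alone) and 0.92 in replicate 1 (0.11 from counting alone). Without shPML replicate 2, in a fit that has no block and takes the spread from shCtrl, it was 0.98 (adjusted p = 0.28 in edgeR), and leaving out any other library in the same way gave an adjusted p between 0.0987 and 0.38. The 3 genes tested whose levels over the 4 libraries were nearest to those of MXD1, in log2(CPM + 0.5) centered per gene, were SIGIRR, MST1 and WHRN, at Euclidean distances of 0.12, 0.16 and 0.17. A likeness over 4 libraries is a weak one.

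**Figure D2:**
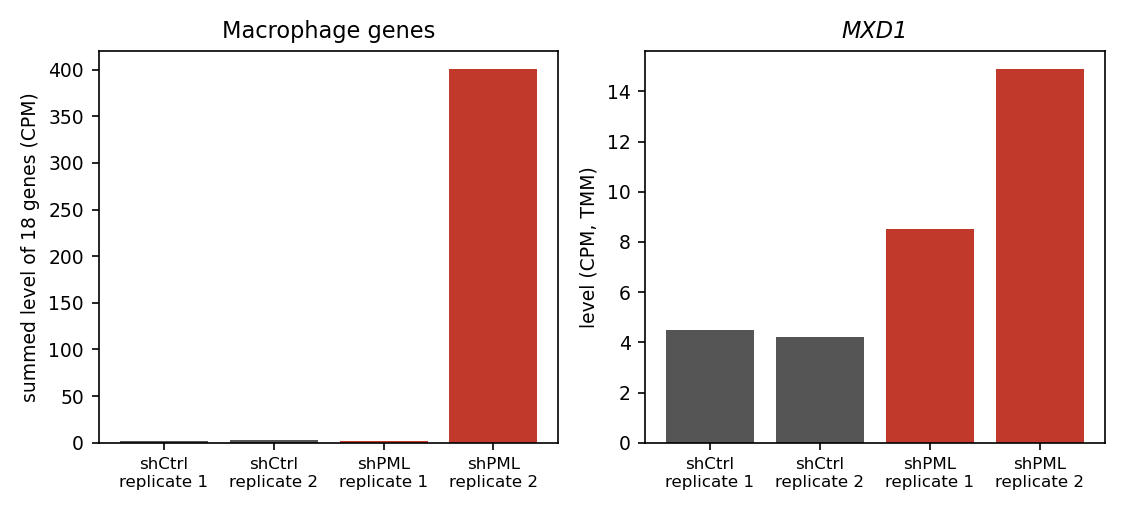
Left, summed level of 18 macrophage genes per library in CPM. Right, level of MXD1 per library in CPM. The bars start at 0, gray for shCtrl and red for shPML. The macrophage genes are at 400.2 CPM in shPML replicate 2 and at most 2.57 CPM elsewhere, while MXD1 is above both shCtrl libraries in shPML replicate 1 as well.

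MXI1, the antagonist known as a hypoxia-inducible gene, lies on chromosome 10 from 110207605 to 110287365. It was at 33.4 and 33.9 CPM in shCtrl and at 47.4 and 45.6 CPM in shPML of replicates 1 and 2. The libraries of a group lay within 2 CPM of each other, and the groups did not overlap, with shPML replicate 1 the higher of the knockdown libraries. Means were 33.6 ± 0.371 CPM and 46.5 ± 1.27 CPM (SD, n = 2 each). The log2 fold change of 0.47 ± 0.12 (SE; adjusted p = 0.00155 with the block and 0.20 without it in edgeR) stayed just under the fold threshold, with 0.51 within replicate 1 and 0.43 within replicate 2. MXD1 and MXI1 were the only members whose groups did not overlap, 2 of 8, both with shPML higher. Among all genes tested the groups did not overlap in 48% (23.1% with shPML higher and 24.9% with shPML lower).

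MXD4, the most abundant antagonist per length, lies on chromosome 4 from 2247432 to 2262109. It was at 42.5 CPM in shCtrl and 54.4 CPM in shPML of replicate 1, and at 68.4 and 102 CPM in replicate 2. It was higher in shPML in each replicate, but shPML replicate 1 lay below shCtrl replicate 2. The log2 fold change was 0.47 ± 0.11 (SE; adjusted p = 0.000829 with the block and 0.57 without it in edgeR), with 0.36 and 0.58 within replicates 1 and 2. MNT, the broadly expressed antagonist, lies on chromosome 17 from 2384073 to 2401104, and its higher level was limited to replicate 2. It was at 47.8 CPM in shCtrl and 48.2 CPM in shPML of replicate 1, and at 65.7 and 95.2 CPM in replicate 2. The log2 ratio was 0.014 within replicate 1 (SE 0.038 from counting alone) and 0.54 within replicate 2, the pair that holds the library with macrophage transcripts. Its log2 fold change over both was 0.27 ± 0.12 (SE; adjusted p = 0.076 in edgeR with the block). The antisense gene AC006435.1 shares 1065 exon bases with MNT, but had at most 19 counts in any library.

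MXD3, an antagonist known for its expression in S phase of proliferating cells, was lower in both shPML libraries than in the shCtrl library of the same replicate. It lies on chromosome 5 from 177305500 to 177312757 and was at 11.1 and 15.4 CPM in shCtrl and at 9.51 and 11.4 CPM in shPML of replicates 1 and 2. The shPML library of replicate 2 lay just above the shCtrl library of replicate 1, so the groups overlapped. The log2 fold change was -0.33 ± 0.16 (SE; adjusted p = 0.13 in edgeR with the block), with -0.23 and -0.43 within the replicates. PRELID1, on the opposite strand, shares 721 exon bases with MXD3, 21.9% of its exon length, and had between 6265 and 13899 counts per library. The strand setting of the counting is not given in the sources used here, so the assignment of reads in the shared bases cannot be told. MGA, on chromosome 15 from 41660412 to 41773081, was at 59.9 and 42.7 CPM in shCtrl and at 49.0 and 39.1 CPM in shPML. Its log2 fold change was -0.21 ± 0.12 (SE; adjusted p = 0.18 in edgeR with the block), with -0.29 and -0.13 within the replicates.

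**Figure D3:**
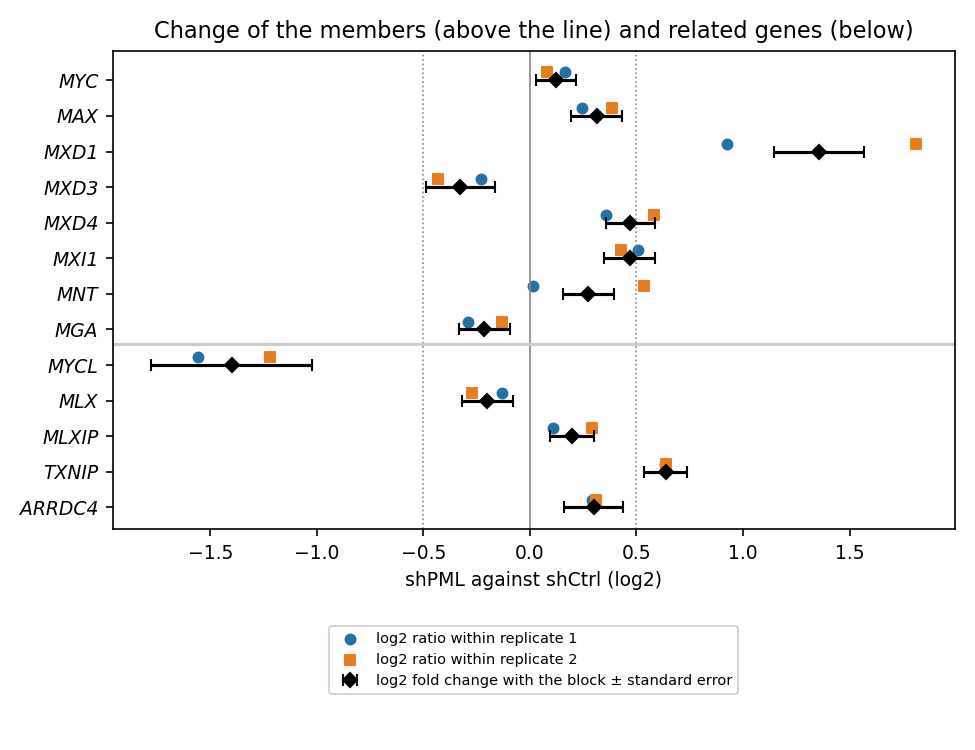
Log2 change in shPML against shCtrl for the 8 detected members and for MYCL, MLX, MLXIP, TXNIP and ARRDC4. Diamonds are the fit with the block with its standard error, circles and squares are the ratios within replicates 1 and 2, and dotted lines mark 0.5 in each direction. MXD1 and TXNIP lie beyond 0.5 on the higher side and MYCL on the lower side.

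All 8 detected members had the same sign of change in both replicates. The share was 81.5% among the tested genes of the pathway and marker lists, with the members and PML included. It was not computed over all genes tested. In 6 of the 8, the difference between the experiments exceeded that between the conditions, the exceptions being MXD1 and MXI1. MXD4, for example, was 0.69 higher in replicate 2 than in replicate 1 on the log2 scale in shCtrl and 0.91 higher in shPML, while MGA was 0.49 and 0.33 lower.

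Activators and antagonists were then set against each other within each library. The summed level of MXD1, MXD3, MXD4, MXI1 and MNT was 32.3 and 43.9 RPKM in shCtrl and 38.9 and 62.0 RPKM in shPML of replicates 1 and 2, and that of MYC and MYCN, all of it MYC, was 69.7 and 102 RPKM in shCtrl and 78.2 and 107 RPKM in shPML. The ratio of antagonists to activators was 0.463 and 0.432 in shCtrl and 0.497 and 0.577 in shPML. It was higher in both shPML libraries than in both shCtrl libraries. Within replicate 1 the ratio was 1.07-fold higher in shPML (0.10 on the log2 scale), and within replicate 2, with the macrophage transcripts, 1.34-fold (0.42). The mean was 0.26 ± 0.22 on the log2 scale (SD, n = 2), and the change in replicate 2 was the larger. No p is given for this sum over chosen genes, and an exact two-sided permutation test of 2 against 2 libraries has 0.333 as its smallest p. MYC made up 61.4% and 64.5% of the summed RPKM of the members in shCtrl and 60.5% and 58.4% in shPML. The share of MXD1 was 0.704% and 0.477% in shCtrl and 1.17% and 1.44% in shPML, and that of MXD3 2.98% and 2.97% in shCtrl and 2.24% and 1.89% in shPML. These are RNA levels, and the amounts of the proteins were not measured here.

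**Figure D4:**
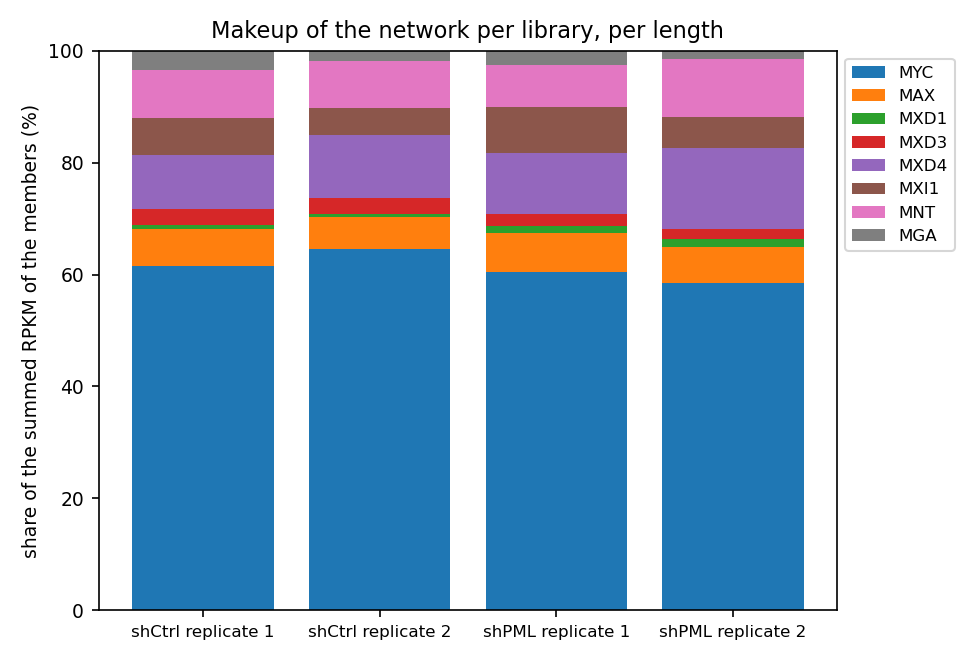
Share of each detected member in the summed RPKM of the network, in percent, as one stacked bar per library. MYC takes between 58.4% and 64.5% of every bar, and MXD1 is the thinnest band in each shCtrl library, at 0.704% and 0.477%.

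The network binds the E-box CACGTG, which is its own reverse complement. RefSeq promoters (GRCh38.p14, 250 bases before to 50 after a gene's start) were searched for these 6 letters, which 7.26% of 35116 entries hold. Of the 8 members with an entry, MXD4 and MNT hold the word, while the entries of MYCN, MAX, MXD1, MXD3, MXI1 and MGA do not. Counted by entry, as for the 7.26%, 2 of the 13 entries of the members (15.4%) hold it. The sites are shown with 12 bases on each side, 5′ to 3′ along the gene, with the word in capitals, for both members and for related genes described below, so that the context of the shared word can be compared.
MXD4: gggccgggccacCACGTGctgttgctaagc
MNT: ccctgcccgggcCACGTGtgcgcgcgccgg
MLX: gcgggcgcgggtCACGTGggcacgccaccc
ARRDC4: aaacggcctgtgCACGTGcacgccggagcc
SRM: ccggccgggcccCACGTGgcccctggagcg
WDR5: acccggccgccgCACGTGttccccgccggg
The word of MXD4 lies at chr4:2262342-2262347 on the minus strand and that of MNT at chr17:2401248-2401253 on the minus strand, with their first base at -238 and -193 relative to the gene's start. Those of MLX and ARRDC4 lie at chr17:42567050-42567055 and chr15:97960493-97960498 on the plus strand, that of SRM at chr1:11060212-11060217 on the minus strand, and that of WDR5 at chr9:134136285-134136290 on the plus strand, in 1 of its 4 entries. A match is a description of these letters and does not show binding in these cells.

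MLX and its partners form a parallel branch that senses glucose-derived metabolites and exchanges dimers with some MXD proteins and MNT. TXNIP, the thioredoxin-interacting protein and a classical target of this branch, rose in shPML. It was at 167 and 136 CPM in shCtrl and at 259 and 212 CPM in shPML, and the groups did not overlap. Its log2 fold change was 0.64 ± 0.10 (SE; adjusted p = 5.05e-07 with the block and 0.18 without it in edgeR), and 0.64 within each replicate. ARRDC4, the other target examined, was at 15.3 and 17.1 CPM in shCtrl and at 18.7 and 21.1 CPM in shPML, a log2 change of 0.30 (adjusted p = 0.094 in edgeR with the block). MLXIP (MondoA) changed by 0.20 and MLX by -0.20, and neither passed (adjusted p = 0.14 and 0.22 in edgeR with the block). MLXIPL (ChREBP) was too low to be tested.

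Genes that work with the network were read from lists. Of the 15 SIN3 corepressor subunits, through which MXD proteins repress, 0 rose and 0 fell. Their log2 fold changes lay between -0.39 and 0.44 around a median of -0.13, although the fit with the block called 19.1% of all genes in one direction or the other. Without the fold threshold, HDAC2 (-0.28) and SAP30 (-0.39) were lower and ARID4A (0.44) was higher at an adjusted p under 0.05 in that fit. Of the 15 MYC coactivators, 1 fell, where 10.5% of all genes tested did. This was WDR5, a chromatin adaptor that also belongs to histone methyltransferase complexes, which fell from 73.9 and 81.4 CPM to 30.4 and 28.6 CPM, with a log2 fold change of -1.39 ± 0.12 (SE; adjusted p = 1.01e-14 with the block and 0.0484 without it in edgeR). Of the 9 genes of the MGA complex, 2 fell and 0 rose, where 10.5% and 8.57% of all genes tested did. The 2 were the Polycomb ring finger gene PCGF6 (-0.61) and the E2F partner gene TFDP1 (-0.55). Neither passed in edgeR without the block (adjusted p = 0.21 and 0.15), and in DESeq2 without the block TFDP1 passed (0.028) and PCGF6 did not (0.15). Within replicate 1 alone the log2 ratios were -1.28 for WDR5, -0.42 for PCGF6 and -0.50 for TFDP1.

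Of 12 genes of MYC protein turnover tested, 4 fell and 1 rose, where 10.5% and 8.57% of all genes tested did. AURKA, a mitotic kinase that also stabilizes MYC proteins, changed by -1.02 on the log2 scale. SKP2, an F-box protein that ubiquitinates MYC, changed by -1.21 and CIP2A, an inhibitor of the phosphatase that acts on MYC, by -1.01. USP28, a deubiquitinase, changed by -0.96, while FBXW7, the F-box protein that marks phosphorylated MYC for degradation, changed by 0.51. FBXW7 and USP28 fall outside the rule for named genes and are given because their values completed the count. Within replicate 1 the log2 ratios were -0.95 for AURKA, -1.14 for SKP2, -1.10 for CIP2A, -0.87 for USP28 and 0.55 for FBXW7. None of these 5 genes passed without the block in edgeR (adjusted p between 0.0657 for AURKA and 0.22 for FBXW7), whereas DESeq2 without the block called AURKA (2.95e-05), CIP2A (0.000115), SKP2 (0.000978) and USP28 (0.00103) and did not call FBXW7 (0.14). Several of these genes are also expressed with the cell cycle, as background.

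Few MYC-induced targets passed both thresholds. Of the 35 tested, 1 rose, 2 fell and 32 did not pass, so 3 of 35 against 19.1% of all genes tested. Some missed only the fold threshold, with an adjusted p under 0.05 in edgeR with the block. These were HSPD1 (log2 fold change -0.44), HSPE1 (-0.40), CDK4 (-0.33), NOP56 (-0.33), PHB (-0.30), LDHA (-0.25) and, in the other direction, PPAN (0.40). Without the fold threshold, 15.7% of all genes tested were lower and 14.5% higher. The median log2 fold change was -0.13, with 27 of 35 below 0, where 8201 of the 16516 genes tested were below 0. Within replicates 1 and 2 the median was -0.095 and -0.15, against -0.00023 and 0.0028 over all genes tested. SRM, the spermidine synthase, fell from 93.1 and 113 CPM to 30.4 and 38.8 CPM, a log2 fold change of -1.58 ± 0.12 (SE; adjusted p = 1.71e-17 with the block and 0.0533 without it in edgeR), with -1.61 and -1.54 within the replicates. SHMT2, the mitochondrial serine hydroxymethyltransferase, fell by 0.63 on the log2 scale. CCND2 (cyclin D2), outside the rule and named after its value was seen, rose by 0.52, but did not pass in DESeq2 with the block (adjusted p = 0.090). The word CACGTG is held by the first promoter entry of 13 of the 28 MYC-induced targets with an entry (46.4%), against 10.1% of the first entries of 10632 genes tested. The remaining genes tested could not be matched to an entry. The list holds known MYC targets, some of which may be known through this word. Its share of 46.4% therefore describes the list and not the response to the knockdown. EIF4A1, a translation factor that cells need, was listed at 0 in every library and was not tested.
Of the 8 MYC-repressed targets tested, 1 rose and 2 fell, where 8.57% and 10.5% of all genes tested did. CDKN1A (p21), the cyclin-dependent kinase inhibitor that is also a p53 target, rose by 0.66 on the log2 scale, with 0.34 within replicate 1 and 0.99 within replicate 2, but it did not pass in DESeq2 with the block (adjusted p = 0.13). CEBPA and PDGFRB, listed as repressed by MYC, fell by 1.44 and 1.22 on the log2 scale, in the direction opposite to CDKN1A. PDGFRB, which is also a stromal marker, was at 3.44 and 9.53 CPM in shCtrl and at 2.43 and 2.40 CPM in shPML. Within replicate 1 alone the log2 ratios were -0.55 for SHMT2, 0.53 for CCND2, -1.69 for CEBPA and -0.50 for PDGFRB. Calls on SHMT2, CCND2, CDKN1A, CEBPA and PDGFRB were made in edgeR with the block, and none of these genes passed in edgeR without it. DESeq2 without the block called SHMT2 (adjusted p = 0.00906) and CEBPA (0.00625) of these, and also SRM, WDR5, TXNIP and MYCL.

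**Figure D5:**
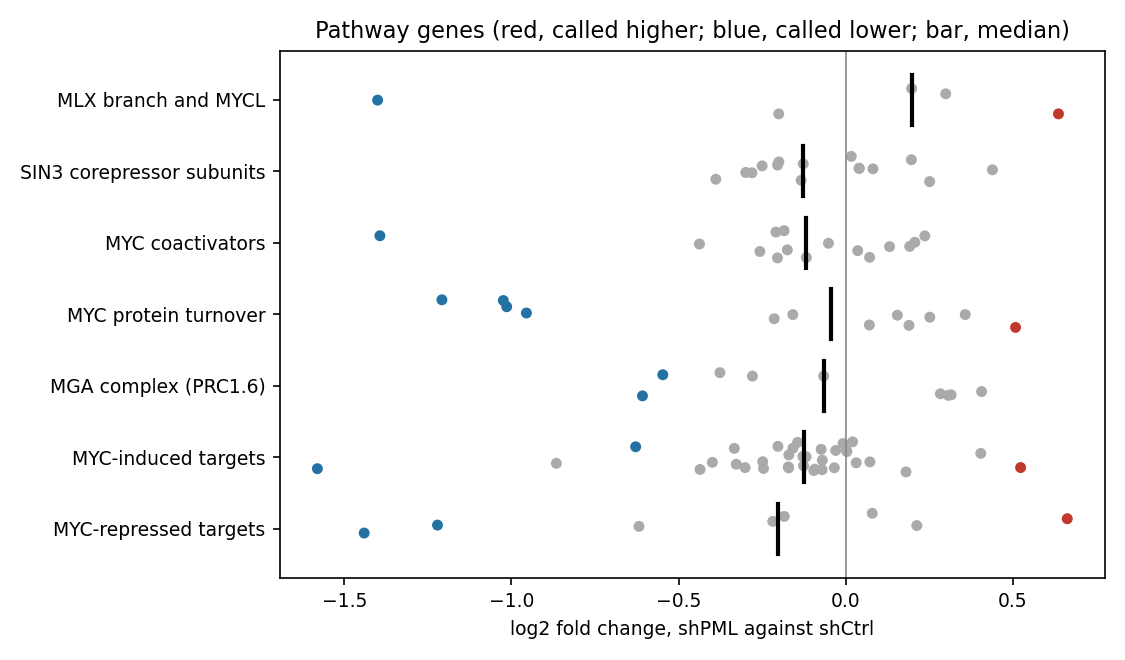
Log2 fold change in shPML against shCtrl, with the replicate as a block, of every gene tested in 7 lists, with called genes in red (higher) or blue (lower), other genes in gray and the median of each list as a black bar. The medians lie between -0.20 and 0.20, and genes called lower reach -1.58 (SRM).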

How the data were processed

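RNA of 2 shCtrl and 2 shPML libraries of RCC4 cells was read from stranded mRNA libraries. According to the methods and the submitters' processing notes, the authors trimmed single-end reads (Trimmomatic 0.39), mapped them to GRCh38 (STAR) and assigned them to Gencode genes (featureCounts 1.6.4). The deposited values are raw counts per gene, without normalization, and the authors' exon length of each gene, a length in bases, was used as deposited for RPKM. The column of each condition without a number was taken as replicate 1, as the other carries the number 2.

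Tests were run with edgeR 4.0.16 (filterByExpr, TMM, quasi-likelihood test, Benjamini-Hochberg adjustment over 16516 genes) and with DESeq2 1.42.0 in R 4.3.3, and summaries made in Python 3.11.15 with pandas 2.3.3. Standard errors are the fold change divided by the root of the F statistic. The main fit had the replicate as a block. The methods describe 2 experiments, the deviations of the replicate 1 libraries from their group means had a correlation of 0.546 across genes, and the experiments took 44.9% of the variance of log2 levels against 41.8% for the condition. With the block, p-values measure the spread left between these libraries once the difference between the experiments is removed, with information shared across genes. Without the block, that difference is part of the spread. Ratios within a replicate had 0.5 counts added. Alternatives were the fit without the block, DESeq2, RLE, other filters on low counts (none, or 10 counts in every library), other fold thresholds, and each library or replicate left out.

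The members and lists were chosen with earlier results of these data known, and the macrophage list after the counts were seen. Named were all members, the MLX branch, and of each other list up to 3 called genes of smallest adjusted p whose groups did not overlap. The edgeR and DESeq2 fits with and without the block were also tested on simulated counts. USP36 was not analysed here.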

Additional observations from a re-analysis of the deposited data

Results flagged for a closer look

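Macrophage transcripts in shPML replicate 2 were above the level of the control libraries. The 18 genes examined, of which C1QB had no counts there and PTPRC was also among the markers of other cell types, summed to 400.2 CPM there, against 2.36 and 2.57 CPM in the shCtrl libraries and 1.40 CPM in shPML replicate 1. Of these genes, 5 passed the filter on low counts. MYC, MAX, MXD1, MXD4 and MNT had their highest level of the 4 libraries in shPML replicate 2 as well, whereas MXI1, MXD3 and MGA did not. In shCtrl too, replicate 2 was above replicate 1 for MYC (0.54 on the log2 scale), MAX (0.27), MXD4 (0.69) and MNT (0.46), but not for MXD1 (-0.088). The part of the macrophage transcripts in the levels of the members was not tested.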

How the results depend on the processing

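MXD1 was called higher with DESeq2, RLE normalization, either filter on low counts and a fold threshold of 1, while the count of members called higher was 0 in edgeR without the replicate block and 4 with no fold threshold. The count was also 0 in each fit that left out 1 library, which has no block and assumes that the lone library varies like the other group. Members called lower numbered 0 in every setting run. The change of PML was -0.69 in edgeR and -0.67 in DESeq2 without the replicate block, not past the threshold in either, and ranged from -1.05 to -0.39 with a library or replicate left out (-0.93 without shCtrl replicate 1). The median of the MYC-induced targets ranged from -0.25 to -0.045 in those fits (-0.064 without shCtrl replicate 1). With 1 library left out, so that the groups hold unequal shares of each experiment, the sign turned for MYC (-0.13 without shCtrl replicate 1 and -0.12 without shPML replicate 2), MXD4 (-0.012) and MNT (-0.22) without shPML replicate 2, MGA (0.044 without shCtrl replicate 1), the coactivator median (0.024 without shCtrl replicate 2 and 0.089 without shPML replicate 1) and the median of the MYC-repressed targets (0.10 without shCtrl replicate 2). The turnover median, -0.044, was between 0.021 and 0.051 in all 4 of these fits, and the MGA complex median, -0.066, was 0.23 without shCtrl replicate 2 and 0.075 without shPML replicate 1. Over all genes tested, 1415 rose and 1735 fell with the block, 13 and 55 without it in edgeR, and 577 and 898 without it in DESeq2. The mean change of the antagonist to activator ratio, 0.26 on the log2 scale, was 0.28 without division by gene length. With MGA among the antagonists it was 0.22. Normalization cannot alter a ratio within a library, so RLE gave the same value. With a library or replicate left out the change ranged from 0.10 to 0.42. Those settings could not turn its sign, because both shPML libraries had a higher ratio than both shCtrl libraries. Depth limits statements on MYCN and MYCL. Most calls rest on the block, with 2 libraries a group.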
